A study of Mus musculus with 24 samples.

Results

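Liver transcripts of heat-shocked PPARα-null mice were compared between 3 mice fed WY before the heat (WY+HS, mice 22, 23 and 24) and 3 mice fed control diet before the heat (HS, mice 16, 17 and 18). The 6 livers were chosen by their labels, out of 24 livers in the series, and all 12422 probe sets of the Affymetrix Murine Genome U74Av2 array other than the AFFX controls were compared. Mice of both groups were male PPARα-null animals 9 to 12 weeks old on a mixed SV129/C57BL/6 background, kept on NIH-07 chow. WY-14,643 (WY) is a synthetic agonist of PPARα and was mixed into the diet at 500 ppm for 1 week. Heat shock (HS) lasted 40 min at 42 °C, and the study's methods give 4 h between HS and killing, while the labels list later times as well. Unheated null mice on control diet (mice 13, 14 and 15) or WY (mice 19, 20 and 21) and 12 wild-type mice in the same 4 groups give the context. The null allele is carried by every cell of the animal, so both groups lack the receptor that WY is used to activate. Whole liver was sampled, and fewer cells of a type and less RNA per cell cannot be told apart.

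PPARα is a nuclear receptor that, once bound by fatty acids or by drugs such as WY, switches on genes of peroxisomal and mitochondrial fatty acid oxidation in hepatocytes. Heat activates the transcription factor HSF1, which drives genes of chaperones, the proteins that keep other proteins folded. The comparison asks, in mice without the receptor, which transcripts differ after HS when WY had been fed.

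A level here is a probe set intensity, quantile normalized over the 24 arrays and set to a floor of 15.7, below which signal was not told from background. Differences are WY+HS minus HS on the log2 scale. "Rose" and "fell" are written for probe sets past a Benjamini-Hochberg adjusted p under 0.05 in limma, with 3 mice per group and the spread shared over all 8 groups. Where a group lies at the floor on all 3 arrays the fold is a lower bound, and the p can be too small because such a group does not vary. Where a gene has several probe sets, the brightest over all arrays stands for it in counts of genes.

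Ppara itself read 134, 142 and 210.2 in the HS mice and 169.9, 159 and 205 in the WY+HS mice, and the difference did not pass the test (log2 difference 0.16, SE 0.22, adjusted p = 0.962). The groups overlapped, the unheated null mice read 103 to 185 and the wild-type HS and WY+HS mice 181 to 330.4 and 288 to 308. No source used here says whether the probe set lies in the deleted part of the gene. Hepatocyte markers were bright in all 6 livers, with 6 of 8 markers measured, none at the floor and a summed level of 29330 to 30360 in the HS and 29560 to 31190 in the WY+HS mice. Within a group, the SD of the log2 difference between 2 mice over 1856 bright probe sets was 0.265 for mice 16 and 17 but 0.464 and 0.498 between each of them and mouse 18, and 0.275 to 0.383 among the WY+HS mice. Skeletal muscle markers summed to 981.6 and 1078 in mice 16 and 17 against 225 in mouse 18, 209 to 279 in the WY+HS and 224 to 301 in the null control mice. Medians of the deposited arrays, which were not at a common level, were 23.9, 17.7 and 30.4 for the HS and 16.7, 26.9 and 18.2 for the WY+HS mice, inside the range of 15.2 to 40.5 over the series.

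After WY+HS 752 probe sets (6.05% of those tested) were higher and 639 (5.14%) were lower than after HS, and 2691 had an unadjusted p under 0.05. As genes, 580 of 8251 rose (7.03%) and 463 fell (5.61%), with a median difference of 0.00. At least 2-fold differences were found in 294 of the higher and 183 of the lower probe sets, and the median log2 difference was 0.86 in the former and -0.74 in the latter. The 3 mice of a group lay beyond all 3 of the other in 2832 probe sets (22.8%). Calls depended on single mice: without mouse 17 there were 729 and without mouse 24 there were 741, without mouse 16 there were 819, and without mouse 18 there were 1597. With only the 6 arrays compared, 166 probe sets passed, of which 132 had passed with all 24 arrays. Scaling to a common median rather than by quantiles gave 1248 calls, 71.6% of them higher against 54.1%, and no scaling, chosen after seeing the data, gave 223, 30.9% of them higher. At a common median the bright probe sets (mean over 200) had a median difference of 0.24 in place of 0.030. Small falls and small rises of bright genes are therefore relative to the scale chosen. Of 157 called named genes, 125 kept the call at a common median and 40 without scaling. Calls lost without scaling, of rises and falls, are not marked gene by gene below.

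Over the called probe sets, the livers that stood apart from the other null livers were those of the HS mice. In 690 of the 752 higher probe sets (91.8%) and in 574 of the 639 lower ones (89.8%) the mean of the unheated null mice, which took no part in the contrast, was nearer to the WY+HS than to the HS mean. All 3 HS mice lay outside the range of the 6 unheated null mice in 482 of the higher and 406 of the lower probe sets, and all 3 WY+HS mice did so in 52 and 48. These probe sets were chosen for a difference between HS and WY+HS mice. The same shares over all 12422 probe sets were not counted. Relative to null controls, the median level over the higher probe sets was -0.70, -0.81 and -0.42 in mice 16, 17 and 18 and 0.068, 0.15 and 0.26 in mice 22, 23 and 24. Over the lower probe sets the same medians were 0.63, 0.64 and 0.41 in the HS and -0.047, -0.20 and -0.20 in the WY+HS mice. Mouse 18 thus lay nearest to the unheated mice among the HS mice in both directions. Against null controls, HS called 878 probe sets (7.07%), WY+HS called 2 (0.0161%, with 610 at an unadjusted p under 0.05) and WY alone called 1 (0.00805%, with 429 unadjusted). These comparisons share mice with the WY difference after HS, so their counts are given side by side only.

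**Figure D1:**
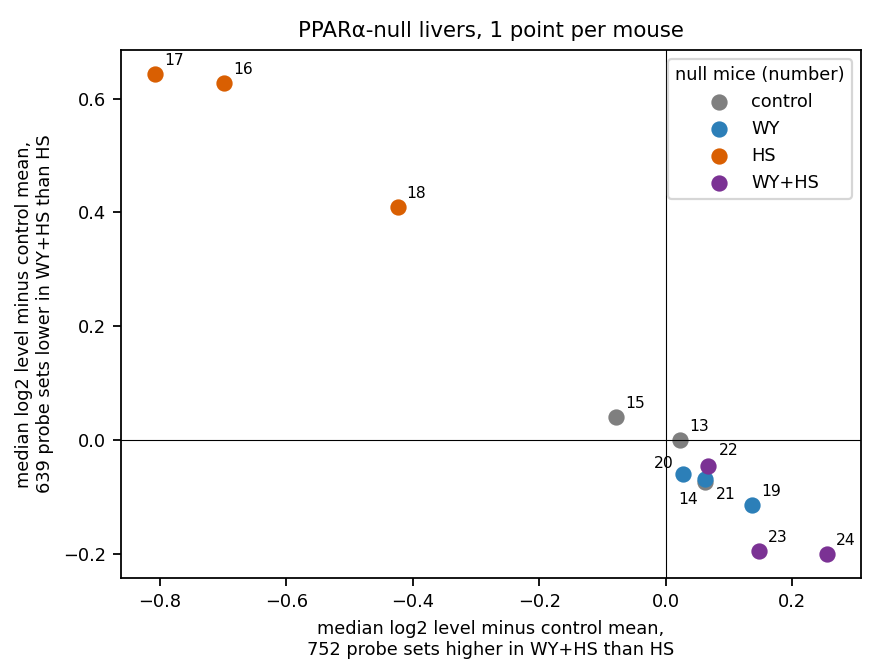
Each point is a PPARα-null mouse, placed by the median of its log2 level minus the null control mean over the 752 probe sets higher in WY+HS than HS (x axis) and the 639 lower ones (y axis). The 3 HS mice sit at the upper left, at -0.81 to -0.42 and 0.41 to 0.64, and the WY+HS, WY and control mice sit near 0 on both axes.

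Where a called gene had another probe set above the floor, the 2 probe sets of the gene had the same sign in 209 of 374 genes (55.9%). Both were past the threshold in 52 genes, in the same direction in 40 and in opposite directions in 12. In the wild-type mice the same comparison, WY+HS against HS, which called 1203 probe sets (9.68%), gave 200 of 261 genes (76.6%) with 1 sign, and 59 of 60 genes with both called in the same direction. Among bright probe sets, over 4 times the floor in both groups, the shares were 73 of 125 genes (58.4%) in null and 90 of 105 (85.7%) in wild-type mice. The difference between strains in this share was not tested. A sister probe set with the opposite sign is given beside the genes described below.

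The 12 largest rises with all 3 WY+HS mice above all 3 HS mice were led by genes at or near the floor in the HS mice. Sct, the precursor of the gut hormone secretin, lay at the floor in all 3 HS mice and read 358, 399 and 365 in the WY+HS mice (at least 23.8-fold, log2 difference 4.57, adjusted p = 0.000674). This probe set, of the family type marked _f_at, read 331 to 510.4 in the unheated null mice, but another Sct probe set read 654, 824 and 644 after HS and 643, 737 and 658 after WY+HS (log2 difference -0.052, adjusted p = 1). Saa4, the constitutive serum amyloid A carried on high-density lipoprotein, lay at the floor in all 3 HS mice and read 76.1, 357 and 259.8 in the WY+HS mice (at least 12.2-fold, log2 difference 3.61, SE 0.77, adjusted p = 0.00563). The WY+HS mice ranged widely, and the unheated null mice covered 25.7 to 287. Igfals, the growth hormone-dependent subunit that keeps insulin-like growth factors in the circulation, read 15.7, 21.0 and 15.7 in the HS mice and 183, 225 and 202 in the WY+HS mice (11.7-fold, log2 difference 3.55, SE 0.32, adjusted p = 3.51e-06). All 3 WY+HS mice were within the unheated range of 141 to 362 and far above the HS mice.

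The promoter of Igfals is shown as that of 1 of the largest rises. The sequence is the 250 bases before the RefSeq start in build GRCm38.p6, chr17:24877594-24877843 on the plus strand, with a match to the STAT site TTCNNNGAA, at bases 236 to 228 before the start, in capitals.
Igfals: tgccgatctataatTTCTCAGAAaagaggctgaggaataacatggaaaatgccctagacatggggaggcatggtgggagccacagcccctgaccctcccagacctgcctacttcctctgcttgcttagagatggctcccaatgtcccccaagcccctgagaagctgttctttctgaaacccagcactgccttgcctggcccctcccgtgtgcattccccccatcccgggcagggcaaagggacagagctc
The match is a description of letters: 6.09% of the 8408 windows of all 6572 genes tested that had a window held this motif, against 4.79% of 606 windows of genes that rose.

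Acaa1b, a peroxisomal thiolase of fatty acid oxidation, gave different answers by probe set. The dimmer probe set read 32.8, 15.7 and 28.7 in the HS mice and 206, 322 and 336 in the WY+HS mice (11.4-fold, log2 difference 3.52, SE 0.36, adjusted p = 1.44e-05), with unheated null mice at 75.0 to 219.8. The brighter probe set read 1676, 1889 and 1943 and 1991, 1899 and 2128 (log2 difference 0.13, adjusted p = 0.514). Ctse, cathepsin E, an endosomal protease, read 49.7, 21.9 and 127 in the HS mice and 372, 560.3 and 702 in the WY+HS mice (10.2-fold, log2 difference 3.35, SE 0.56, adjusted p = 0.000955). Its family-type probe set moved the same way (116, 96.2 and 267 against 707, 1097 and 1221), and another, at 40.1 to 113 and 76.7 to 117, did not pass. Pdia6, a protein disulfide isomerase of the endoplasmic reticulum (ER), read 15.7, 15.7 and 23.8 in the HS mice and 57.9, 194 and 230.0 in the WY+HS mice (7.59-fold, log2 difference 2.92, adjusted p = 0.00173). Another probe set rose as well (2.25), and the last did not pass (log2 difference 0.30, adjusted p = 0.884).

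Pcsk6, a convertase that cleaves precursor proteins, read 15.7, 17.8 and 15.7 in the HS mice and 114, 99.1 and 111 in the WY+HS mice (6.58-fold, log2 difference 2.72, SE 0.25, adjusted p = 3.65e-06), with no overlap and a narrow spread. Gldc, the decarboxylase of the glycine cleavage system, read 59.2, 15.7 and 37.3 in the HS mice and 168, 216 and 251 in the WY+HS mice (6.41-fold, log2 difference 2.68, adjusted p = 0.000507). Mknk2, a kinase that acts on the translation factor eIF4E, read 15.7, 15.7 and 25.3 in the HS mice and 120.2, 77.3 and 179 in the WY+HS mice (log2 difference 2.68, adjusted p = 0.000329). Its brighter probe set read 409, 379.9 and 496 and 608, 347 and 613 (log2 difference 0.25, adjusted p = 0.95). The unheated null mice read 41.5 to 84.9 for Pcsk6, 165 to 449 for Gldc and 62.7 to 112 for Mknk2. Prss32, a serine protease, read 18.2, 16.9 and 22.9 in the HS mice and 137, 175 and 143 in the WY+HS mice (log2 difference 2.98, adjusted p = 0.000387). Atp6v0e2, a subunit of the proton pump of acidic organelles, lay at the floor in all 3 HS mice and read 71.7, 231 and 137 in the WY+HS mice (log2 difference 3.06, adjusted p = 0.0174). Myt1l, a neural transcription factor whose other probe sets lay at the floor, lay at the floor in all 3 HS mice and read 63.6, 138 and 128 in the WY+HS mice (log2 difference 2.72, adjusted p = 0.0174). Of these 12, the calls of Atp6v0e2 (2.65 to 3.50) and Myt1l (2.52 to 3.08) without mouse 16, 17, 23 or 24 were lost when that mouse was left out, with the range of the log2 difference over the 6 omissions in brackets.

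Among the 12 largest falls, Tff2, a trefoil peptide of mucus-secreting epithelium, read 232, 186 and 869.5 in the HS mice and lay at the floor in all 3 WY+HS mice (at least 21.2-fold, log2 difference -4.41, SE 0.34, adjusted p = 7.02e-07). It also lay at the floor in all 6 unheated null mice, so among null mice the HS mice alone gave signal, with mouse 18 the highest. S100a6, a calcium-binding protein of dividing and mesenchymal cells, read 105, 112 and 112 in the HS mice and 16.9, 15.7 and 15.7 in the WY+HS mice (6.81-fold, log2 difference -2.77, SE 0.099, adjusted p = 1.15e-11). The HS mice were tightly grouped and lay above the unheated range of 15.7 to 25.1. For both genes the null WY, wild-type HS and wild-type WY+HS mice lay at the floor. The error is shared over all 8 groups, so both p-values can be too small. In the 6 arrays alone the adjusted p in limma was 0.000704 for S100a6 and 0.0629 for Tff2. Tff2 and S100a6 were known to stand out in HS null livers when the lists were made.

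The S100a6 promoter is shown because its level separated the groups with the smallest error, as shared over all 8 groups, among the 24 genes. It is chr3:90612644-90612893 on the plus strand in GRCm38.p6 (RefSeq), the 250 bases before the start, with 1 match to GAANNTTC, a pair of head-to-head units of the heat shock element, at bases 18 to 11 before the start in capitals.
S100a6: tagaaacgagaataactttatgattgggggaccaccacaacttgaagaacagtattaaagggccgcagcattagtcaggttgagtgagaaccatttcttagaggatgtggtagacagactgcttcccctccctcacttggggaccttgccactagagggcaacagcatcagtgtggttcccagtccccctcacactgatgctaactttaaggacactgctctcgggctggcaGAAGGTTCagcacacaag
Of all windows 5.07% held these letters, and of 471 windows of genes that fell 5.52% did.

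Cd4, the co-receptor of helper T cells, read 211, 267 and 219 in the HS mice and 27.6, 36.2 and 15.7 in the WY+HS mice (9.21-fold, log2 difference -3.20, SE 0.70, adjusted p = 0.00677), and the WY mice without HS read 156, 129 and 115. Col1a1, a chain of type I collagen, read 119, 104 and 136 in the HS mice and 30.5, 15.7 and 15.7 in the WY+HS mice by its dimmer probe set (log2 difference -2.60, adjusted p = 5.45e-05). The brighter probe set fell as well (log2 difference -1.59, adjusted p = 0.0332), a call lost without mouse 16, 17, 22 or 24 (-1.80 to -1.40 over the omissions). Cd24a, a surface protein of progenitor, biliary and immune cells, read 106, 117 and 146 in the HS mice and 21.2, 19.7 and 29.1 in the WY+HS mice (log2 difference -2.41, adjusted p = 8.47e-05). In all 3 genes the groups did not overlap, and the WY+HS mice read within or below the unheated range. Ahnak, a large scaffold protein at membranes, read 105, 75.1 and 158 in the HS mice and 34.0, 15.7 and 15.7 in the WY+HS mice (log2 difference -2.40, adjusted p = 0.000868). Sh2d1b1, an adaptor of natural killer cells, read 145, 133 and 61.3 in the HS mice and 25.3, 17.0 and 16.1 in the WY+HS mice (log2 difference -2.47, adjusted p = 0.000834). Other large falls were those of Npy6r, a neuropeptide Y receptor (log2 difference -3.17), Mybbp1a, a nucleolar protein (-2.85), Wfdc18, a secreted protease inhibitor (-2.28), and Man2c1, a cytosolic mannosidase (-2.23). Other Mybbp1a probe sets lay at or near the floor, and the call of Man2c1 was lost without mouse 16, 17, 23 or 24 (-2.32 to -2.05 over the omissions). Over all 24 genes 21 kept their call with any 1 array left out, 24 at a common median, 20 without scaling and 12 in the 6 arrays alone.

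**Figure D2:**
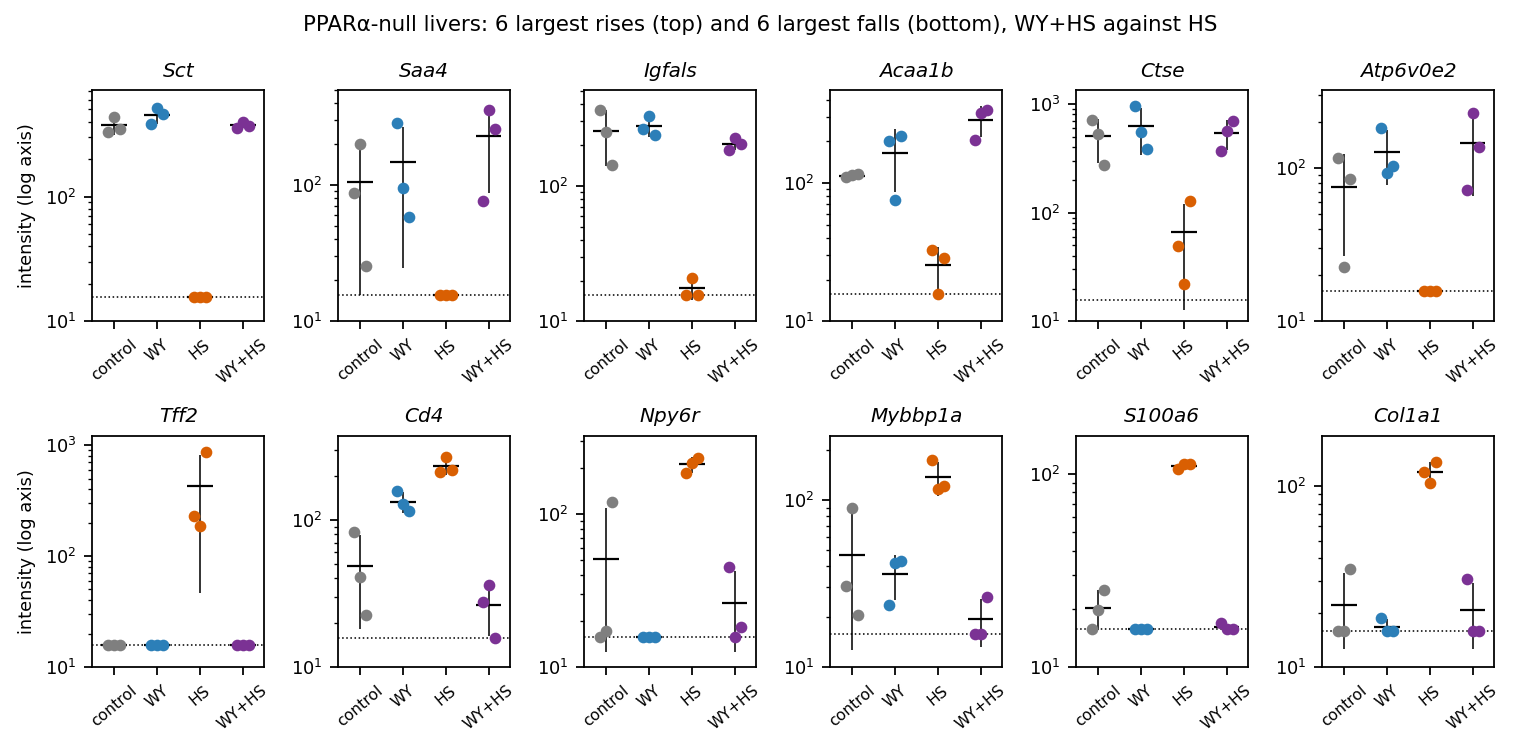
Intensity on a log axis for the 6 genes with the largest rises (top) and falls (bottom) in PPARα-null livers, with 1 point per mouse, the mean and SD of each group of 3 (bars stop near the floor) and the floor as a dotted line. The HS mice lie apart from the control, WY and WY+HS mice in each panel, below them in the top row and above them in the bottom row.

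Genes of peroxisomal beta-oxidation, which shortens very long fatty acids, lay above 0 in 12 and below 0 in 3 of the 16 measured. Of all 8251 genes 3082 lay above 0 and 3312 below it. Of the 16, 4 rose (25.0%) and 1 fell, and the median was 0.33. The shares beside which this list and those below stand are 7.03% risen and 5.61% fallen among all genes. These shares include 1969 of 8251 genes at the floor in both groups, where no call is possible. The lists differ in this, with 2 of these 16, none of 40 proteasome genes and 11 of 42 matrix genes at the floor in both groups. Shares among genes with signal alone were not counted. Ech1, which moves double bonds during beta-oxidation, read 135, 139 and 242 in the HS mice and 331, 339 and 349.9 in the WY+HS mice (log2 difference 1.04, SE 0.16, adjusted p = 0.000582). Hsd17b4, the bifunctional enzyme of the pathway, read 377, 363 and 431 in the HS mice and 619.5, 621 and 739 in the WY+HS mice (log2 difference 0.76, SE 0.091, adjusted p = 6.84e-05). Neither gene had overlapping groups, and both lay within or near the unheated range in the WY+HS mice. Eci2, an enoyl-CoA isomerase, read 187, 207 and 239.9 in the HS mice and 306, 337 and 328 in the WY+HS mice (log2 difference 0.62, adjusted p = 0.00551). Aldh3a2, a fatty aldehyde dehydrogenase, read 128, 135 and 404 in the HS mice and 454, 441 and 386 in the WY+HS mice (log2 difference 1.15, adjusted p = 0.0307), where mouse 18 overlapped the WY+HS mice. Acaa1a, the other peroxisomal thiolase, went the opposite way and read 1858, 1991 and 1772 in the HS mice and 1359, 1157 and 1224 in the WY+HS mice (log2 difference -0.59, adjusted p = 0.00438), a fall not called at a common median (-0.35, adjusted p = 0.298). Of the established PPARα target genes 3 of 25 rose (12.0%, against 7.03% of all genes) and none fell. Their median was 0.064, against 2.36 for the same list in the wild-type mice. Acot1, an acyl-CoA thioesterase, read 103, 101 and 105 in the HS mice and 137, 197 and 190.5 in the WY+HS mice (log2 difference 0.74, adjusted p = 0.00921). Fabp1, the liver fatty acid carrier, read 2626, 2587 and 3503 in the HS mice and 4366, 4339 and 4270 in the WY+HS mice (log2 difference 0.59, adjusted p = 0.00313). Cpt1a, which admits fatty acids to mitochondria, differed little (log2 difference 0.086, adjusted p = 1). The call was lost for Aldh3a2 (0.86 to 1.69) without mouse 16, 17, 22, 23 or 24 and Acot1 (0.65 to 0.91) without mouse 24.

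Mitochondrial fatty acid oxidation followed the same direction, with 5 of 16 measured genes risen, none fallen and a median of 0.24. Hadh, a short-chain dehydrogenase of the pathway, read 367, 324 and 724 in the HS mice and 833, 923 and 1082 in the WY+HS mice (log2 difference 1.09, SE 0.21, adjusted p = 0.00299). Etfdh, which passes electrons from fatty acid oxidation to ubiquinone, read 70.4, 63.9 and 74.7 in the HS mice and 116, 149 and 139 in the WY+HS mice (log2 difference 0.95, adjusted p = 0.00073). Hadhb, part of the trifunctional protein, read 352, 363 and 386 in the HS mice and 467, 531 and 487 in the WY+HS mice (log2 difference 0.43, adjusted p = 0.00283). Mouse 18 was the HS mouse nearest the WY+HS mice in all 3 genes, and the groups did not overlap. Eci1, the mitochondrial isomerase, read 150.0, 208 and 134 in the HS mice and 234, 242 and 240.1 in the WY+HS mice (log2 difference 0.57, adjusted p = 0.0248), a call lost without mouse 16, 18, 22, 23 or 24 (0.43 to 0.75 over the omissions). Without mouse 18 there were 6 rises in this list and 7 in the peroxisomal one, and at a common median 7 and 8. Without scaling between arrays neither list had a rise. On that scale 6 of the 42 pathway lists had any rise, with at most 2 in a list.

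The TCA cycle and pyruvate dehydrogenase, which burn acetyl-CoA, had 7 of 20 genes risen and none fallen, with a median of 0.13. Idh3g, a subunit of the NAD-dependent isocitrate dehydrogenase, read 75.4, 68.8 and 116 in the HS mice and 166, 188 and 176 in the WY+HS mice (log2 difference 1.06, SE 0.16, adjusted p = 0.000344), while a sister probe set near the floor did not pass (log2 difference 0.026, adjusted p = 1). Pdha1, the first subunit of pyruvate dehydrogenase, read 162, 196 and 179 in the HS mice and 338, 277 and 346 in the WY+HS mice (log2 difference 0.83, adjusted p = 0.000563). Idh2, the NADP-dependent enzyme of mitochondria, read 152, 163 and 199 in the HS mice and 286, 289 and 328 in the WY+HS mice (log2 difference 0.82, adjusted p = 0.00499). The groups did not overlap in these genes, and the WY+HS values lay among those of the unheated mice except for 1 higher value of Idh2. Suclg2, of succinyl-CoA ligase, also rose (log2 difference 0.55, adjusted p = 0.027), but the call was lost without mouse 17, 18, 22, 23 or 24 (0.48 to 0.64 over the omissions). Without mouse 18 the list had 6 rises and 2 falls.

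The respiratory chain did not move as 1 group. Complex II had 2 of 4 genes risen and none fallen, led by Sdhb, its iron-sulfur subunit, which read 842, 952 and 1044 in the HS mice and 1383, 1292 and 1474 in the WY+HS mice (log2 difference 0.55, SE 0.08, adjusted p = 0.000329). Complex I had 6 rises and 6 falls among 29 genes, complex III with cytochrome c 2 and 1 among 9, complex IV 2 and 3 among 12, and ATP synthase 3 and 1 among 13. Ndufb8, an accessory subunit of complex I, rose and read 393, 389 and 426 in the HS mice and 627, 726 and 683 in the WY+HS mice (log2 difference 0.75, adjusted p = 0.000475). Another, Ndufa5, fell and read 1584, 1579 and 1117 in the HS mice and 984, 724 and 883 in the WY+HS mice (log2 difference -0.72, adjusted p = 0.0022). Both separated the groups fully in opposite directions. Atpif1, the inhibitor of ATP synthase, read 438, 400.5 and 329 in the HS mice and 186, 136 and 137 in the WY+HS mice (log2 difference -1.35, adjusted p = 7.14e-05), and 3 subunits of the enzyme rose, Atp5c1 with 756, 699 and 778 against 1006, 1132 and 1089 (log2 difference 0.53, adjusted p = 7.14e-05). Cox17, the copper chaperone of complex IV, read 1050, 1038 and 875 in the HS mice and 646, 385 and 483 in the WY+HS mice (log2 difference -1.0, adjusted p = 0.000928). The calls of some falls depended on the scaling, but Atpif1 and Cox17 kept theirs at a common median and without scaling. Atpif1 differed by -1.17 (adjusted p = 0.000835) and -1.39 (0.0187), and Cox17 by -0.75 (0.048) and -0.97 (0.0373). Without scaling none of these lists had a rise, and complex IV and ATP synthase had 1 fall each. At a common median complex I had 7 rises and no fall, complex III 2 and 0, and complex IV 2 rises and 1 fall, and the difference of Ndufa5 stayed negative but was not called (-0.50, adjusted p = 0.179).

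Of 60 genes of the mitochondrial ribosome and of import into mitochondria, 13 rose and 5 fell, with a median of 0.056. Mrpl16, a protein of the large mitochondrial ribosomal subunit, read 83.0, 75.2 and 98.5 in the HS mice and 153, 145 and 165 in the WY+HS mice (log2 difference 0.86, SE 0.14, adjusted p = 0.000624). Timm9, a chaperone between the mitochondrial membranes, read 28.6, 25.0 and 24.7 in the HS mice and 45.1, 42.0 and 61.9 in the WY+HS mice (log2 difference 0.91, adjusted p = 0.0257). Mrps16, of the small subunit, went the opposite way and read 45.0, 45.6 and 25.4 in the HS mice and 18.9, 16.0 and 16.1 in the WY+HS mice (log2 difference -1.14, adjusted p = 0.0092). Slc25a4, the ADP/ATP carrier of muscle and heart, read 124, 125 and 26.2 in the HS mice and 20.5, 15.7 and 19.4 in the WY+HS mice (log2 difference -2.0, adjusted p = 0.0291), with the 2 high HS values in mice 16 and 17, the mice with muscle transcripts, whose part in this result was not tested. Among mitochondrial chaperones and proteases 3 of 14 rose and 1 fell. Grpel1, the nucleotide exchange factor of mitochondrial Hsp70, read 101, 78.5 and 121 in the HS mice and 169, 238 and 223 in the WY+HS mice (log2 difference 1.08, SE 0.20, adjusted p = 0.00207). Its relative Grpel2 read 56.8, 51.6 and 86.8 in the HS mice and 127, 105 and 150.4 in the WY+HS mice (log2 difference 0.99, adjusted p = 0.0264). Dnaja3, a co-chaperone, rose too (log2 difference 0.41, adjusted p = 0.00901). Hspa9, mitochondrial Hsp70 itself, fell (log2 difference -0.40, adjusted p = 0.0154) but was not called at a common median (-0.16, adjusted p = 0.788). Calls were lost on leaving out 1 array for Timm9 (0.74 to 1.02) without mouse 16, 17, 18 or 24, Mrps16 (-1.42 to -0.99) without mouse 16 or 17, Slc25a4 (-2.75 to -1.63) without mouse 16, 17, 22, 23 or 24, Grpel2 (0.85 to 1.22) without mouse 16, 17, 22 or 24, Dnaja3 (0.36 to 0.46) without mouse 17 and Hspa9 (-0.54 to -0.33) without mouse 16, 17, 23 or 24.

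Cytosolic chaperones, the classic products of HSF1, had 4 of 38 genes risen (10.5%, against 7.03% of all genes), none fallen and a median of 0.22. Without mouse 18 the median was 0.015, and without scaling none rose. Stip1, which links Hsp70 to Hsp90, read 235, 211 and 187 in the HS mice and 364, 438 and 436 in the WY+HS mice (log2 difference 0.97, SE 0.23, adjusted p = 0.0115). St13, another Hsp70 partner, read 48.1, 38.3 and 41.8 in the HS mice and 96.7, 127 and 108 in the WY+HS mice (log2 difference 1.37, adjusted p = 0.019). Dnajb1, a co-chaperone of Hsp70, read 29.6, 21.4 and 19.4 in the HS mice and 40.4, 116 and 39.0 in the WY+HS mice (log2 difference 1.30, adjusted p = 0.0452). The groups did not overlap in these 3 genes, and mouse 23 had the highest Dnajb1 level. Other inducible chaperones did not pass. Hsp90aa1 read 2598, 2291 and 1707 in the HS mice and 2228, 2970 and 2325 in the WY+HS mice (log2 difference 0.20, adjusted p = 1). Hsph1 read 1572, 1563 and 342 in the HS mice and 1231, 2056 and 1339 in the WY+HS mice (log2 difference 0.67, adjusted p = 0.729). Their HS mice were split, with Hsph1 at 342 in mouse 18 against 1572 and 1563 in the others. Hspd1 (log2 difference 0.11, adjusted p = 0.743), Hspe1 (log2 difference -0.038, adjusted p = 1), Dnaja1 (log2 difference 0.54, adjusted p = 0.36) and Hspa4l (log2 difference 0.59, adjusted p = 0.172) also missed the threshold, as did all 9 genes of the TCP-1 chaperonin, which folds actin and tubulin (median -0.18). Dnaja2 rose by 0.41 (adjusted p = 0.0483). Without 1 array the calls of Stip1 (0.89 to 1.06) without mouse 24, St13 (1.26 to 1.46) without mouse 17, 23 or 24, Dnajb1 (0.78 to 1.57) without mouse 16, 17, 18 or 23 and Dnaja2 (0.34 to 0.46) without mouse 16, 17, 22, 23 or 24 were lost, and Dnajb1 missed the threshold at a common median (1.28, adjusted p = 0.0601).

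The proteasome, which degrades tagged proteins, had 10 of 40 genes risen (25.0%, against 7.03% of all genes) and none fallen, with a median of 0.17. Without scaling none of the 40 rose. Psmb3, a subunit of its core, read 304, 292 and 306 in the HS mice and 550.3, 532 and 550.3 in the WY+HS mice (log2 difference 0.86, SE 0.14, adjusted p = 0.000673). Psmc1, an ATPase of its cap, read 121, 92.5 and 162 in the HS mice and 215, 217 and 212 in the WY+HS mice (log2 difference 0.82, adjusted p = 0.00419). Psmc2, another ATPase, read 219, 222 and 248 in the HS mice and 292, 395 and 341 in the WY+HS mice (log2 difference 0.57, adjusted p = 0.00514). None of these overlapped, and the HS mice of Psmb3 were the lowest of all null mice. Psmd5, an assembly factor, rose by 0.58 (adjusted p = 0.0246), a call lost without mouse 17, 22, 23 or 24 (0.50 to 0.65 over the omissions).

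ER folding and the unfolded protein response had 7 of 45 genes risen (15.6%, against 7.03% of all genes) and 1 fallen. Beside Pdia6, Sec61a1, the channel through which proteins enter the ER, read 307, 299.6 and 333 in the HS mice and 527, 680.0 and 565 in the WY+HS mice (log2 difference 0.91, SE 0.15, adjusted p = 0.00104). Another Sec61a1 probe set did not rise (log2 difference -0.35, adjusted p = 0.257). Pdia4, another disulfide isomerase, read 153, 158 and 168 in the HS mice and 243, 277 and 279 in the WY+HS mice (log2 difference 0.74, adjusted p = 0.00998). Xbp1, a transcription factor of the unfolded protein response, read 222, 188 and 311 in the HS mice and 397, 618 and 397 in the WY+HS mice (log2 difference 0.97, adjusted p = 0.0186), a call lost without mouse 16, 17 or 23 (0.76 to 1.17 over the omissions). The 3 genes separated the groups, and the HS mice lay below the unheated range except for mouse 18 in Xbp1.

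A mixed list of NRF2 and antioxidant genes had 4 rises (14.3%) and 1 fall (3.57%) among 28, against 7.03% and 5.61% of all genes. Gclc, the rate-limiting enzyme of glutathione synthesis, read 202, 168 and 215 in the HS mice and 410.1, 670.5 and 402 in the WY+HS mice (log2 difference 1.31, SE 0.27, adjusted p = 0.00455), with mouse 23 the highest. Gsr, which regenerates glutathione, read 118, 118 and 119 in the HS mice and 214, 225 and 229.7 in the WY+HS mice (log2 difference 0.91, SE 0.077, adjusted p = 1.6e-06), with values that hardly varied within a group. Gpx1, a glutathione peroxidase, went down and read 199.9, 198 and 159.9 in the HS mice and 90.8, 96.8 and 93.0 in the WY+HS mice (log2 difference -0.98, adjusted p = 0.00527). Txnrd1, thioredoxin reductase, rose (log2 difference 0.59, adjusted p = 0.0186), a call lost without mouse 18 or 23 (0.41 to 0.68 over the omissions). Metallothioneins, metal-binding stress proteins, did not pass. Mt1 read 6929, 6582 and 4405 in the HS mice and 4143, 5239 and 4201 in the WY+HS mice (log2 difference -0.38, adjusted p = 0.812). Mt2 differed by -0.26 (adjusted p = 0.965) and Mt3 by -0.53 (0.101).

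Drug-metabolizing genes regulated by the receptors CAR and PXR had 7 of 41 genes risen (17.1%, against 7.03% of all genes), none fallen and a median of 0.28. Without scaling 2 rose. The difference was above 0 in 33 and below 0 in 5 of the 41, passed or not, against 3082 and 3312 of all 8251 genes. Cyp2c38, a cytochrome P450, read 424, 375 and 384 in the HS mice and 1296, 1231 and 1142 in the WY+HS mice (log2 difference 1.63, SE 0.16, adjusted p = 5.64e-06). Its probe set is of the family type, so related Cyp2c genes may share the signal, and its 3 HS mice were the lowest null mice by far. Cyp2d10, another P450, read 1142, 1126 and 2587 in the HS mice and 3093, 3676 and 4366 in the WY+HS mice (log2 difference 1.30, adjusted p = 0.00279), with mouse 18 the HS mouse nearest to the WY+HS mice. The other Cyp2d10 probe set, as bright, read 2547, 2435 and 2809 and 2558, 2499 and 2531 (log2 difference -0.036, adjusted p = 1), so the rise rests on 1 probe set. Gstt1, a glutathione transferase, read 539, 498 and 509 in the HS mice and 779.8, 821 and 1010 in the WY+HS mice (log2 difference 0.75, adjusted p = 0.00645). Gstm2, a transferase of the mu class, read 181, 176 and 171 in the HS mice and 411, 362 and 371 in the WY+HS mice (log2 difference 1.11, adjusted p = 0.0175), a call lost without mouse 16, 17, 22 or 24 (1.06 to 1.15 over the omissions). Its dimmer probe set did not pass (log2 difference -0.21, adjusted p = 0.987).

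A mixed list of male-biased genes and genes of the growth hormone axis, which acts through STAT5, had 4 of 29 risen and none fallen. The share risen was 13.8%, against 7.03% of all genes, and the median was 0.24. Igfals had the largest of the 4 rises. Keg1, an acyltransferase of kidney and liver, read 91.8, 92.2 and 156 in the HS mice and 362, 372 and 474 in the WY+HS mice (log2 difference 1.86, SE 0.49, adjusted p = 0.0217). Serpina12, a secreted serpin, lay at the floor in all 3 HS mice and read 109.8, 60.8 and 51.5 in the WY+HS mice (at least 4.45-fold, log2 difference 2.15, adjusted p = 0.00203). Stat5a read 15.7, 63.7 and 88.8 in the HS mice and 133, 128 and 135 in the WY+HS mice (log2 difference 1.56, adjusted p = 0.0315). The groups did not overlap, although Stat5a ran from the floor in mouse 16 to 88.8 in mouse 18. Calls of Keg1 (1.74 to 2.12) without mouse 16, 17 or 24 and Stat5a (0.81 to 2.06) without mouse 16, 22, 23 or 24 were lost. Hsd3b5, a male-specific steroid dehydrogenase, read 82.7, 58.7 and 141 in the HS mice and 479, 504 and 526 in the WY+HS mice but did not pass (log2 difference 2.51, adjusted p = 0.106). The promoter window of Keg1, chr19:12695540-12695789 on the plus strand, is shown as the window of this list with 2 matches to TTCNNNGAA, in capitals at bases 173 to 165 and 107 to 99 before the start, and that of Slc10a1, chr12:80968706-80968955 on the minus strand and read 5′ to 3′, with 1 match at bases 53 to 45.
Keg1: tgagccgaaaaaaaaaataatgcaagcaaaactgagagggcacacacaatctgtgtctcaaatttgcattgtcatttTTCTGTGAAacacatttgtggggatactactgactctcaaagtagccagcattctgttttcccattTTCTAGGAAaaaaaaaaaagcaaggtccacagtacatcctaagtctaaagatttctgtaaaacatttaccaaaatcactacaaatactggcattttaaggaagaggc
Slc10a1: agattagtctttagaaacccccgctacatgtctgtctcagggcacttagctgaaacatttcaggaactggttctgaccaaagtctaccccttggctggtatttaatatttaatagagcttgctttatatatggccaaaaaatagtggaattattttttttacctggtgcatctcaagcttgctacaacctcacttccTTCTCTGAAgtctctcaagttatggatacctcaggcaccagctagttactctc

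Slc10a1, the transporter that takes bile acids into hepatocytes, was the sole gene of bile acid synthesis and transport past the threshold among 18, and read 906, 881 and 1549 in the HS mice and 1973, 2291 and 2610 in the WY+HS mice (log2 difference 1.08, SE 0.21, adjusted p = 0.00311). The WY+HS mice lay within the unheated range of 1700 to 2956, and the HS mice below it. Apolipoproteins and lipoprotein assembly had 7 of 26 genes risen and 1 fallen. Apob, the core protein of very low density lipoprotein, read 161, 208 and 334 in the HS mice and 379, 739.8 and 849 in the WY+HS mice (log2 difference 1.47, adjusted p = 0.0392). Mttp, which loads lipid onto it, read 17.5, 16.6 and 28.6 in the HS mice and 49.6, 59.9 and 45.9 in the WY+HS mice (log2 difference 1.34, adjusted p = 0.0202). Fabp2, a fatty acid carrier, read 146, 138 and 252 in the HS mice and 431, 438 and 397 in the WY+HS mice (log2 difference 1.29, adjusted p = 0.00419). Fabp4, the carrier of adipocytes and macrophages, was the member that fell and read 52.9, 61.8 and 43.0 in the HS mice and 22.6, 21.3 and 22.6 in the WY+HS mice (log2 difference -1.23, adjusted p = 0.0149). In each of these genes the 3 WY+HS mice lay beyond the 3 HS mice. Leaving out an array lost the calls of Apob (1.23 to 1.82) without mouse 16, 17, 23 or 24, Mttp (1.20 to 1.59) without mouse 16, 17 or 23 and Fabp4 (-1.37 to -1.11) without mouse 16 or 17.

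Fatty acid synthesis and desaturation had 1 rise and 2 falls among 22. Scd1, the desaturase that makes oleate, read 4916, 4733 and 4694 in the HS mice and 2470, 875 and 2558 in the WY+HS mice (log2 difference -1.44, SE 0.34, adjusted p = 0.0121), with mouse 23 lowest and the unheated mice at 1899 to 4440. Elovl5, an elongase of polyunsaturated fatty acids, read 476, 453 and 693 in the HS mice and 947, 1258 and 1057 in the WY+HS mice (log2 difference 1.02, adjusted p = 0.00152). Acly, which supplies cytosolic acetyl-CoA, read 719.7, 726 and 509 in the HS mice and 386, 304 and 369.6 in the WY+HS mice (log2 difference -0.87, adjusted p = 0.024). At a common median the falls of Scd1 (-1.28, adjusted p = 0.0637) and Acly (-0.65, adjusted p = 0.178) were not called, and the call of Acly was lost without mouse 16, 17, 23 or 24 (-1.04 to -0.77 over the omissions). None of 18 genes of cholesterol synthesis passed, the widest being Fdps, farnesyl diphosphate synthase, at 1.27 (adjusted p = 0.108). Of the PPARγ and lipid droplet genes 2 of 16 fell, Fabp4 and Nr1h3, the oxysterol receptor LXRα (log2 difference -0.38, adjusted p = 0.0438), which was not called at a common median (-0.18, adjusted p = 0.701) and was lost without mouse 16, 17, 18, 23 or 24 (-0.46 to -0.32 over the omissions).

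Breakdown of branched-chain amino acids had 5 of 19 genes risen and 1 fallen, with a median of 0.21. Hsd17b10, a mitochondrial dehydrogenase of isoleucine breakdown, read 168, 183 and 221 in the HS mice and 357, 341 and 381 in the WY+HS mice (log2 difference 0.92, SE 0.13, adjusted p = 0.000225). Mcee, an epimerase of the same route, read 101, 88.5 and 123 in the HS mice and 145, 148 and 176 in the WY+HS mice (log2 difference 0.59, adjusted p = 0.0118), and Mmut, the next enzyme, fell (log2 difference -0.60, adjusted p = 0.0282). In the urea cycle and glycine cleavage 2 of 15 rose and 2 fell. Gcsh, the carrier protein of glycine cleavage, rose with Gldc and read 233, 260.1 and 254 in the HS mice and 387, 458 and 483 in the WY+HS mice (log2 difference 0.82, SE 0.08, adjusted p = 7.23e-06). Slc25a15, the ornithine carrier, read 3235, 3279 and 2128 in the HS mice and 1776, 1776 and 1647 in the WY+HS mice (log2 difference -0.71, adjusted p = 0.00839), and Arg1, arginase, fell by 0.30 (adjusted p = 0.0477). In Gldc and Gcsh all 3 HS mice lay below all unheated null mice. At a common median the falls of Mmut (-0.42, adjusted p = 0.225), Slc25a15 (-0.51, adjusted p = 0.206) and Arg1 (-0.11, adjusted p = 0.975) were not called. Calls were lost with 1 array left out for Mcee (0.48 to 0.72) without mouse 17 or 24, Mmut (-0.75 to -0.46) without mouse 16, 17, 23 or 24, Slc25a15 (-0.91 to -0.60) without mouse 17 and Arg1 (-0.38 to -0.25) without mouse 16, 17, 22 or 24.

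Other amino acid catabolism had 5 rises and 3 falls among 21. Dmgdh, of choline breakdown, read 452, 397 and 532 in the HS mice and 719.7, 1106 and 874 in the WY+HS mice (log2 difference 0.96, adjusted p = 0.00111). Tdo2, which opens tryptophan breakdown, read 2026, 2056 and 2359 in the HS mice and 2838, 3949 and 3786 in the WY+HS mice (log2 difference 0.70, adjusted p = 0.0205). The other Tdo2 probe set did not rise (log2 difference -0.38, adjusted p = 0.305). Hal, which deaminates histidine, fell and read 854, 838 and 628 in the HS mice and 534, 494 and 436 in the WY+HS mice (log2 difference -0.66, adjusted p = 0.00477), as did Aass of lysine breakdown (log2 difference -0.65, adjusted p = 0.00342). These amino acid genes are bright, and at a common median the falls of Hal (-0.43, adjusted p = 0.12) and Aass (-0.45, adjusted p = 0.119) were not called. Leaving out 1 array lost Tdo2 (0.61 to 0.85) without mouse 16, 17, 23 or 24. In gluconeogenesis, glycolysis and fasting 3 of 30 genes rose (10.0%, against 7.03% of all genes) and 1 fell. Pgam1, a glycolytic mutase, read 256, 200.1 and 191 in the HS mice and 349.9, 479 and 449 in the WY+HS mice (log2 difference 0.98, adjusted p = 0.00375). Pcx, pyruvate carboxylase, rose by 0.52 in its brighter probe set (adjusted p = 0.00491) and fell in the dimmer one (log2 difference -0.84, adjusted p = 0.000928), so its direction depends on the probe set. Pkm, the pyruvate kinase of non-hepatocytes, read 41.5, 38.8 and 31.7 in the HS mice and 15.7, 16.6 and 15.7 in the WY+HS mice (log2 difference -1.21, adjusted p = 3.61e-07).

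**Figure D3:**
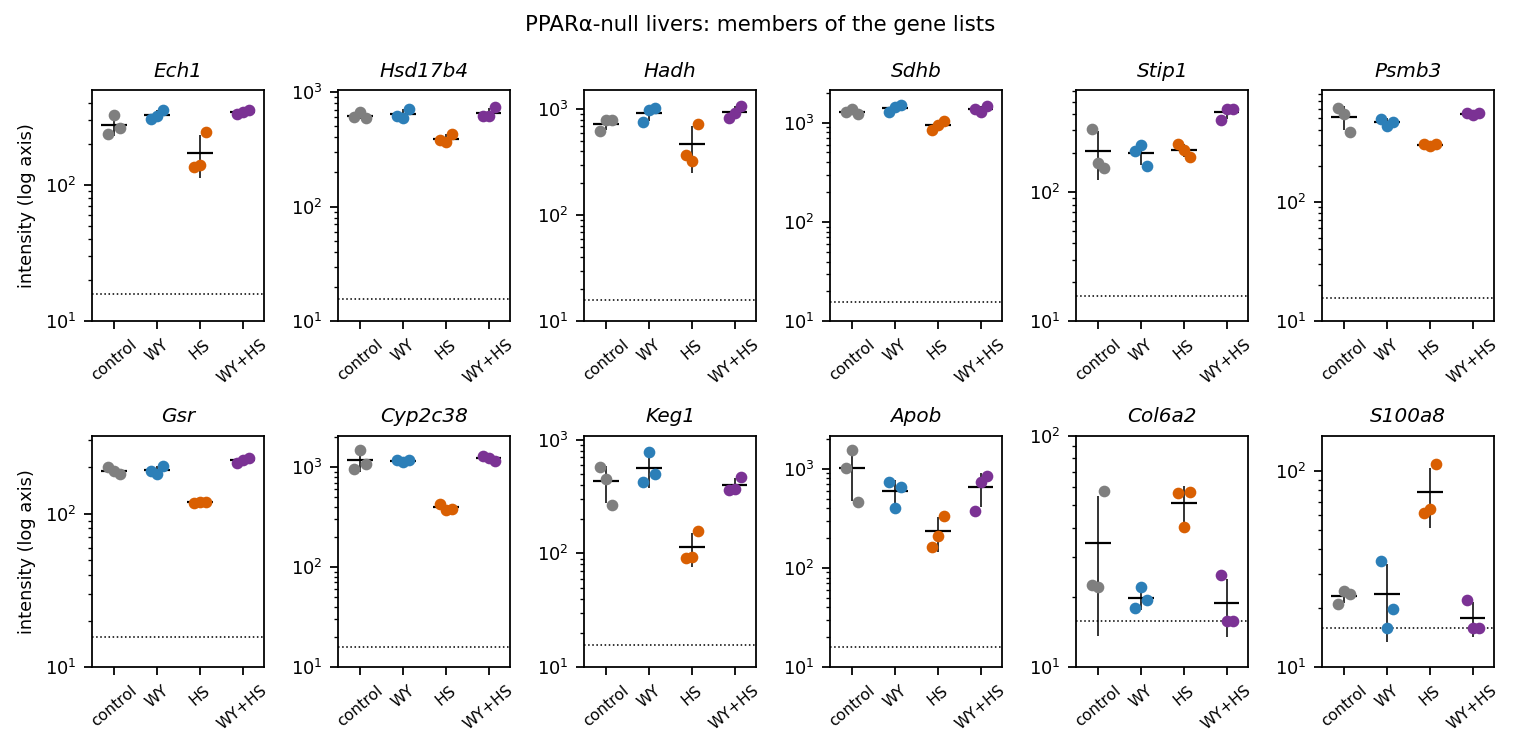
Intensity on a log axis for 12 members of the gene lists in PPARα-null livers, with 1 point per mouse, group mean and SD (n = 3) and the floor as a dotted line. The HS mice are the lowest group for Ech1, Hsd17b4, Hadh, Sdhb, Psmb3, Gsr, Cyp2c38, Keg1 and Apob and the highest for S100a8, whereas the 3 WY+HS mice are the highest null mice for Stip1, at 364 to 438.

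The lists of S100 proteins and of matrix had falls and no rise. S100 proteins, annexins and genes listed with them had 9 of 22 fallen and none risen, with a median of -0.32, in a list made with Tff2 and S100a6 already known. Tff2 and Cd24a belong to neither family. S100a8, a subunit of the neutrophil protein calprotectin, read 61.4, 64.0 and 109 in the HS mice and 22.0, 15.7 and 15.7 in the WY+HS mice (log2 difference -2.10, SE 0.29, adjusted p = 0.000217). Its partner S100a9 read 43.6, 33.5 and 38.3 in the HS mice and lay at the floor in all 3 WY+HS mice (at least 2.43-fold, log2 difference -1.28, adjusted p = 1.72e-06). Anxa2 and Anxa1, membrane-binding annexins, differed by -1.06 and -0.95. Collagens and matrix had 7 of 42 fallen and none risen. Col6a2, of type VI collagen, read 56.6, 40.2 and 57.0 in the HS mice and 24.9, 15.7 and 15.8 in the WY+HS mice (log2 difference -1.46, adjusted p = 0.00671). Col4a1, of basement membrane, read 293, 252 and 281 in the HS mice and 147, 141 and 81.9 in the WY+HS mice (log2 difference -1.21, adjusted p = 0.0253). Lama2, a laminin chain, read 36.7, 43.8 and 47.2 in the HS mice and 24.5, 15.7 and 26.4 in the WY+HS mice (log2 difference -0.97, adjusted p = 0.021). Of the WY+HS mice, 2 read above the unheated range of 36.4 to 85.0 for Col4a1 and 2 read below it for Lama2 and for Col6a2, whose HS mice lay inside it. The calls of Col1a1 (-1.80 to -1.40) without mouse 16, 17, 22 or 24, Col4a1 (-1.36 to -0.94) without mouse 16, 17, 18 or 24 and Lama2 (-1.11 to -0.74) without mouse 17, 18 or 23 were lost, and without mouse 18 the matrix list had 4 falls and 2 rises.

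Markers of some other cell types were lower in the WY+HS mice as well, and those of others were not. Lymphocyte markers summed to 1458 to 1633 in the HS and 858 to 978 in the WY+HS mice, with 3 of 7 markers (Cd3e, Cd3d and Cd3g) at the floor in both groups. Most of each sum came from the B cell genes Ms4a1 and Ighm. The difference was below 0 in 3 of the 7 and above 0 in 1, with a median of 0.00. Ms4a1, the B cell antigen CD20, read 942, 1022 and 889 in the HS mice and 494, 579.7 and 549.6 in the WY+HS mice (log2 difference -0.81, adjusted p = 0.0104), with its other probe set at or near the floor. Ighm, the heavy chain of IgM, read 345, 366 and 558 in the HS mice and 264, 206 and 139.7 in the WY+HS mice (log2 difference -1.07, adjusted p = 0.0409). Neutrophil markers summed to 394 to 458 against 234 to 269, with Ngp at the floor in both groups and S100a9 and Mpo in the WY+HS mice. Smooth muscle and stellate markers summed to 297 to 369 against 240 to 292. Des, desmin of stellate and muscle cells, read 70.6, 70.7 and 59.8 in the HS mice and 36.5, 29.7 and 39.1 in the WY+HS mice (log2 difference -0.94, adjusted p = 0.00743). Vwf, of endothelium, read 32.5, 47.3 and 51.9 in the HS mice and 25.1, 15.7 and 22.1 in the WY+HS mice (log2 difference -1.07, adjusted p = 0.00998). Endothelial markers as a sum lay at 298 to 324 against 294 to 303, Kupffer and macrophage markers at 532 to 750.4 against 622.5 to 911, and erythroid markers at 2241 to 2942 against 1978 to 2123. Slc4a1, the erythrocyte anion exchanger, and Tnni2, a troponin of fast muscle, fell to the floor from at most 27.0 and 22.4 (-0.45 and -0.33). Of 3 cholangiocyte markers Krt7 and Epcam lay at the floor in both groups and Krt19 was above it in 1 HS mouse. Pancreatic markers summed to 210 to 461 against 397 to 469, with Cela1, an elastase, risen (log2 difference 1.22, adjusted p = 0.0171) and Prss2, a trypsin, fallen (log2 difference -0.67, adjusted p = 0.0472). The difference was below 0 in 3 of these 4 markers, and their median was -0.61. The part of these cell types in the falls was not tested. Calls of Ms4a1 (-0.87 to -0.75) without mouse 17, Ighm (-1.28 to -0.83) without mouse 16, 17, 18, 23 or 24, Vwf (-1.27 to -0.87) without mouse 17 or 23, Slc4a1 (-0.58 to -0.29) without mouse 17, 18, 22, 23 or 24, Tnni2 (-0.49 to -0.24) without mouse 16, 17 or 24, Cela1 (1.12 to 1.29) without mouse 17 or 24 and Prss2 (-1.01 to -0.28) without mouse 16, 17, 22, 23 or 24 were lost with that array left out. A common median ended the calls of Ms4a1 (-0.55, adjusted p = 0.0759), Ighm (-0.87, adjusted p = 0.0828), Slc4a1 (-0.34, adjusted p = 0.111) and Prss2 (-0.62, adjusted p = 0.0638).

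Actin cytoskeleton genes controlled by SRF had 5 falls (12.5%) and 2 rises (5.0%) among 40, against 5.61% and 7.03% of all genes. Their median was -0.21, and at a common median they had 1 fall and 2 rises. Actb, beta-actin, fell by the brighter probe set, which read 1124, 1391 and 1148 in the HS mice and 840.4, 824 and 595 in the WY+HS mice (log2 difference -0.71, adjusted p = 0.00974), and was higher by the other, with 239, 176 and 329.8 and 449, 565 and 419 (log2 difference 0.98, adjusted p = 0.00664). The direction of Actb therefore depends on the probe set. Arpc2, of the Arp2/3 complex that branches actin, read 1159, 942 and 1097 in the HS mice and 838, 656 and 679 in the WY+HS mice (log2 difference -0.56, adjusted p = 0.00843). Ezr, ezrin, and Actn1, alpha-actinin, fell by 0.70 and 0.69. The calls of Actb (-0.80 to -0.55) without mouse 17 or 24, Ezr (-0.83 to -0.48) without mouse 18, 22, 23 or 24 and Actn1 (-0.95 to -0.47) without mouse 16, 18, 23 or 24 were lost by omission. Those of Actb (-0.48, adjusted p = 0.127), Arpc2 (-0.32, adjusted p = 0.368) and Actn1 (-0.54, adjusted p = 0.138) were lost at a common median. Of the tubulins 1 of 11 rose, Tubg1, gamma-tubulin of the centrosome, which read 42.4, 42.7 and 53.4 in the HS mice and 88.2, 100.2 and 134 in the WY+HS mice (log2 difference 1.21, adjusted p = 0.00311).

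Acute phase proteins, which the liver secretes in inflammation, had 1 rise (Saa4) and 2 falls among 32, with a median of -0.17. Saa2 and Saa3, the inducible serum amyloids, varied widely. Saa2 read 5709, 5176 and 1224 in the HS mice and 959, 2076 and 484 in the WY+HS mice (log2 difference -1.74, adjusted p = 0.459). Saa3 read 1549, 1499 and 329 in the HS mice and 366, 452 and 239 in the WY+HS mice (log2 difference -1.42, adjusted p = 0.304). Mouse 18 was again the low HS mouse, and the groups overlapped. Cd14, the endotoxin co-receptor, fell and read 161, 171 and 138 in the HS mice and 57.0, 91.3 and 68.2 in the WY+HS mice (log2 difference -1.14, adjusted p = 0.0101). Itih3 fell by 0.57 (adjusted p = 0.0383), lost at a common median (-0.33, adjusted p = 0.365) and without mouse 16, 17, 18, 22, 23 or 24 (-0.62 to -0.48 over the omissions). Inflammatory signalling had 1 of 36 genes called, Il18, which lay at the floor in the HS mice and in mouse 24 and read 33.3 and 23.1 in mice 22 and 23. The Il18 call was lost without mouse 16, 17, 18, 22 or 23 (0.28 to 0.82 over the omissions). Immediate-early and p53 stress genes had 1 fall among 36, Jund, of the AP-1 complex (log2 difference -0.63, adjusted p = 0.0282), lost without mouse 16, 17 or 24 (-0.84 to -0.48 over the omissions) and at a common median (-0.44, adjusted p = 0.32).

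Complement and coagulation had 4 rises and 5 falls among 35, and 7 rises and no fall at a common median. Masp2, a protease that starts the lectin pathway of complement, read 15.7, 28.4 and 29.5 in the HS mice and 75.6, 122 and 118 in the WY+HS mice (log2 difference 2.12, SE 0.23, adjusted p = 2.47e-05). F5 and F10, clotting factors V and X, rose as well. F5 read 702, 640.5 and 906 in the HS mice and 1126, 1202 and 1240 in the WY+HS mice (log2 difference 0.68, adjusted p = 0.000476). F10 read 773, 984 and 871 in the HS mice and 1235, 1425 and 1425 in the WY+HS mice (log2 difference 0.64, adjusted p = 0.00405). A dimmer F10 probe set did not rise (log2 difference -0.092, adjusted p = 1). Groups did not overlap in the 3 genes. F13b rose by 0.52 and the call was lost without mouse 16, 17, 23 or 24 (0.38 to 0.66 over the omissions). Interferon and MHC genes had 3 rises and 3 falls among 33. H2-Ab1, an MHC class II chain of antigen-presenting cells, read 73.7, 70.2 and 94.4 in the HS mice and 32.7, 15.7 and 15.7 in the WY+HS mice (log2 difference -1.97, SE 0.35, adjusted p = 0.00159). Ly6e, an interferon-induced surface protein, read 4201, 4366 and 4339 in the HS mice and 2989, 2271 and 1915 in the WY+HS mice (log2 difference -0.87, adjusted p = 0.0217), with its other probe set at or near the floor. Irf1, an interferon-responsive transcription factor, read 221, 223 and 201 in the HS mice and 109.5, 147 and 87.5 in the WY+HS mice (log2 difference -0.94, adjusted p = 0.0233). Rsad2, an antiviral enzyme, rose from the floor (at least 2.31-fold, log2 difference 1.21, adjusted p = 0.0179). Omission of 1 array lost Ly6e (-1.04 to -0.72) without mouse 16, 17, 23 or 24, Irf1 (-1.13 to -0.76) without mouse 16, 17, 22 or 24 and Rsad2 (0.82 to 1.48) without mouse 16, 17 or 23. A common median lost Ly6e (-0.71, adjusted p = 0.141).

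Among hepatocyte transcription factors and nuclear receptors 2 of 38 rose and 2 fell. Hnf4a, which governs hepatocyte identity genes, read 40.7, 29.7 and 29.9 in the HS mice and 61.8, 135 and 126 in the WY+HS mice (log2 difference 1.62, SE 0.40, adjusted p = 0.0135), with unheated null mice at 77.5 to 228. Thra, a thyroid hormone receptor, read 145, 163 and 136 in the HS mice and 108, 92.6 and 69.7 in the WY+HS mice (log2 difference -0.74, adjusted p = 0.00922). Prox1 rose from the floor to at most 25.9 (adjusted p = 0.0479). Of the circadian clock genes 2 of 21 rose. Nr1d2, the repressor REV-ERBβ, read 35.7, 20.2 and 35.6 in the HS mice and 76.7, 79.0 and 105 in the WY+HS mice (log2 difference 1.54, adjusted p = 0.0343). Rora, the activator of the same sites, read 62.2, 79.8 and 64.6 in the HS mice and 84.6, 130.3 and 127 in the WY+HS mice (log2 difference 0.71, adjusted p = 0.0105). Cell cycle genes had 1 rise (Cks2, 1.22) and 1 fall (Cdc20, -0.96) among 40. Single omissions lost Hnf4a (1.42 to 1.98) without mouse 17, 23 or 24, Thra (-0.88 to -0.56) without mouse 17 or 24, Prox1 (0.41 to 0.63) without mouse 16, 17, 18, 23 or 24, Nr1d2 (1.27 to 1.68) without mouse 16, 17, 22, 23 or 24, Rora (0.60 to 0.91) without mouse 16, 23 or 24, Cks2 (0.93 to 1.53) without mouse 16, 17 or 24 and Cdc20 (-1.17 to -0.71) without mouse 16, 17, 22 or 24. A common median lost Prox1 (0.41, adjusted p = 0.0556) and Cdc20 (-0.93, adjusted p = 0.0547).

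Translation genes rose in 6 and fell in 1 of 40. Eif3a, a subunit of an initiation factor, read 41.1, 52.5 and 81.7 in the HS mice and 110.3, 126 and 129 in the WY+HS mice (log2 difference 1.12, adjusted p = 0.00671). Iars, which charges the tRNA of isoleucine, read 86.1, 66.5 and 79.2 in the HS mice and 118, 121 and 125 in the WY+HS mice (log2 difference 0.66, adjusted p = 0.00078). Nars, for asparagine, rose (log2 difference 0.88, adjusted p = 0.0442) and Eif4g2, an initiation factor, fell (log2 difference -0.54, adjusted p = 0.0248). Cytosolic ribosomal proteins had 3 rises and 3 falls among 31, and 4 rises and no fall at a common median. Rpl10a read 381, 371 and 639 in the HS mice and 705, 753 and 751 in the WY+HS mice (log2 difference 0.71, adjusted p = 0.00983), but its other probe set, about as bright, fell (log2 difference -0.69, adjusted p = 0.00653). Rps24 read 4115, 4115 and 4083 in the HS mice and 3113, 2639 and 2639 in the WY+HS mice (log2 difference -0.56, adjusted p = 0.000481). Rps7 rose by 0.59 and Rps10 fell by 0.45. Calls lost with 1 array left out were those of Nars (0.71 to 1.01) without mouse 16, 17, 22, 23 or 24, Eif4g2 (-0.65 to -0.44) without mouse 16, 17, 23 or 24, Rpl10a (0.58 to 0.97) without mouse 16 or 17, Rps7 (0.50 to 0.76) without mouse 16, 17 or 24 and Rps10 (-0.53 to -0.40) without mouse 17, 23 or 24. Scaling to a common median ended those of Eif4g2 (-0.46, adjusted p = 0.0767), Rps24 (-0.37, adjusted p = 0.238) and Rps10 (-0.23, adjusted p = 0.595).

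**Figure D4:**
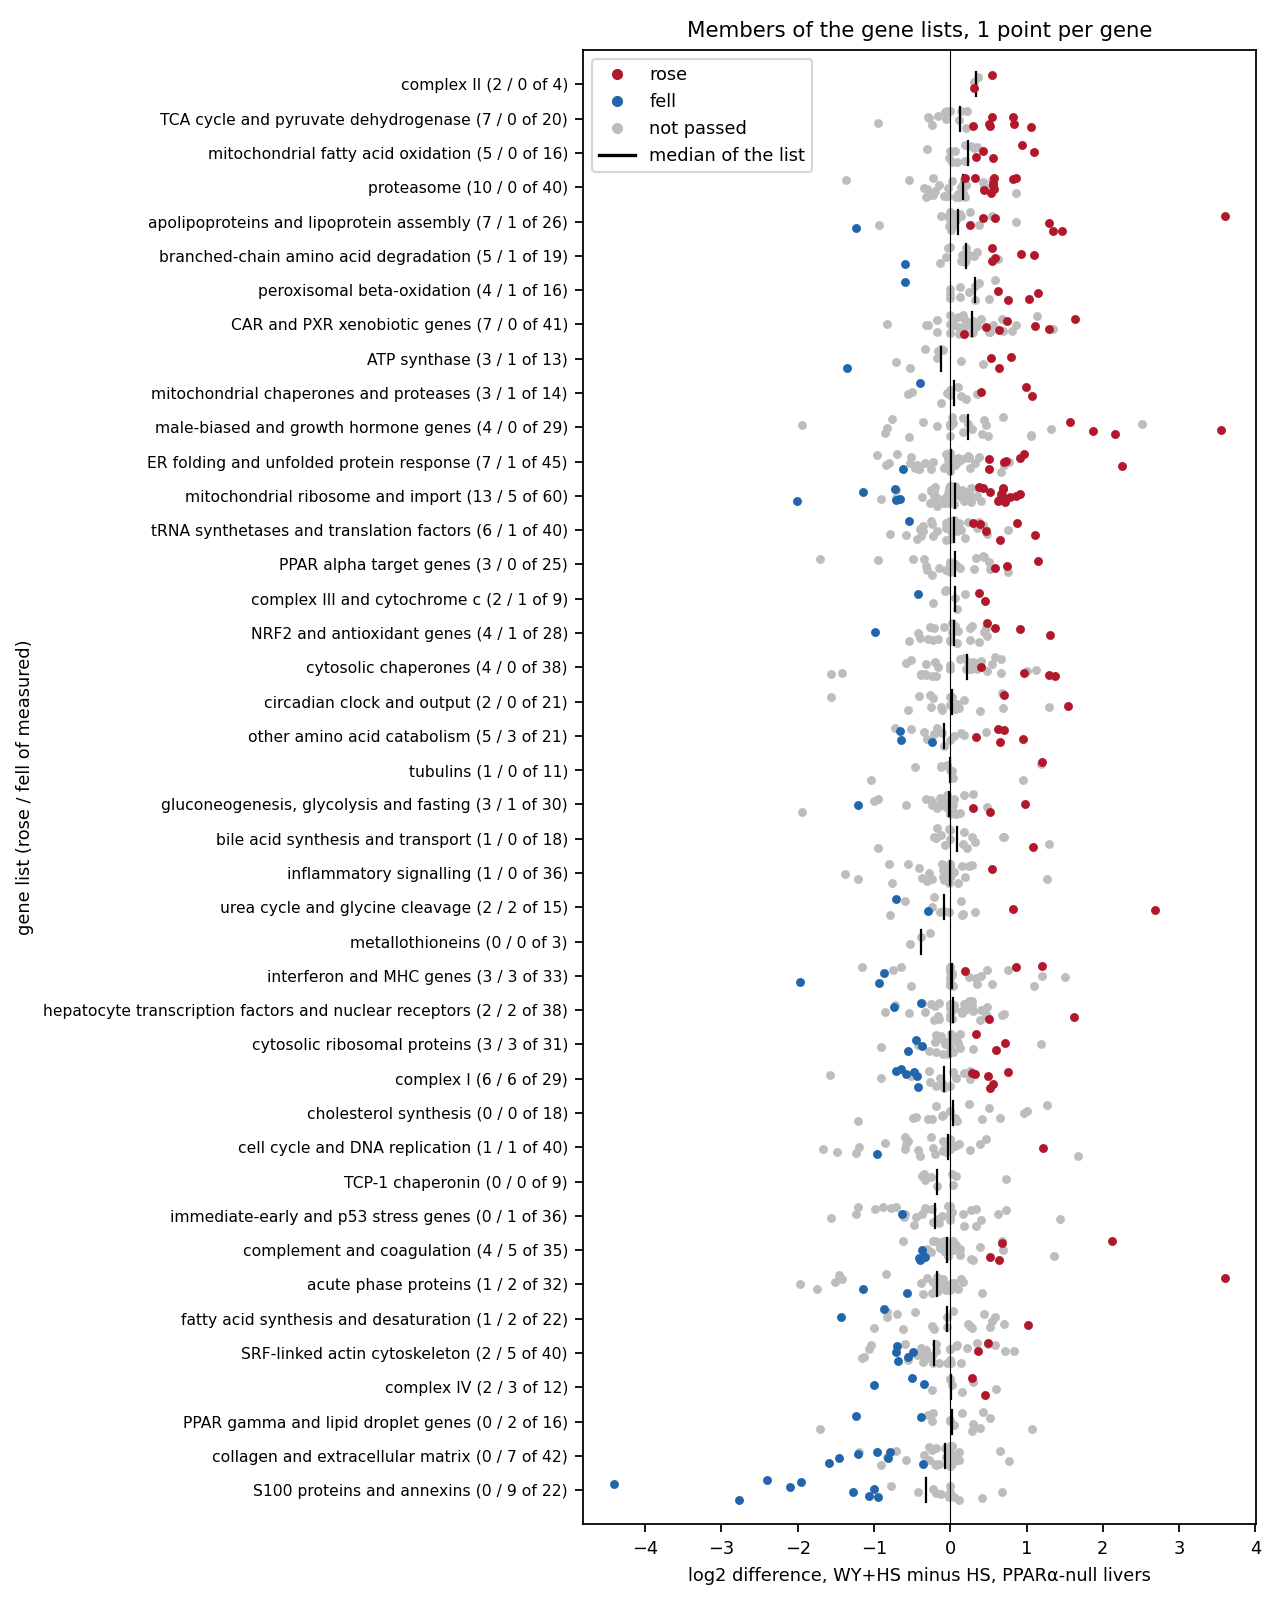
Log2 difference of each measured member of the 42 pathway lists, WY+HS minus HS in PPARα-null livers, with the median of each list as a bar and lists ordered by the share of members that rose minus the share that fell. Complex II, the TCA cycle and mitochondrial fatty acid oxidation stand at the top, and the matrix and S100 lists, with 7 and 9 falls and no rise, at the bottom.

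Whether the WY difference of heat-shocked null mice went beyond that of unheated null mice was asked by the interaction of WY and HS, which passed in 229 probe sets (1.84%), 144 with a more positive and 85 with a more negative difference after HS. Without mouse 20 there were 118, without mouse 24 there were 121, without mouse 14 there were 131, without mouse 17 there were 134, without mouse 21 there were 143 and without mouse 18 there were 547. Positive differences made up 62.9% of the 229, 79.8% of the calls at a common median, 12.2% without scaling and 40.5% with only the arrays compared. The largest more positive differences were in Sct (4.30, adjusted p = 0.0437), Meg3, a maternally expressed noncoding RNA (3.35, 0.0173), Igfals (3.33, 0.000776), Dctpp1, a nucleotide pyrophosphatase (3.27, 0.0073), and Fam102a (3.21, 0.00958). A sister probe set of Dctpp1 differed by 0.25 between WY+HS and HS mice, against 1.92 for the named one. Fam102a differed by 1.71 between these mice. Without HS, WY minus control was -1.36 for Dctpp1 and -1.50 for Fam102a, so part of both interactions comes from the unheated mice. Meg3 lay at the floor in the HS and WY mice, read 86.8, 99.0 and 66.0 in the WY+HS mice and 15.7, 15.7 and 114 in the controls. The largest more negative ones were in Cd4 (-4.84, 0.0182), Tff2 (-4.41, 0.000105), Col9a1, a cartilage collagen (-3.16, 0.0128), Csnk2a2, a kinase (-2.58, 0.0456), and S100a6 (-2.44, 2.12e-08). Csnk2a2 read 162, 161 and 186 in the HS and 81.0, 32.4 and 90.8 in the WY+HS mice, and its 2 dimmer probe sets had positive differences of 0.49 and 0.55. Its WY minus control difference without HS was 1.13. For Cd4 and Col9a1 the WY mice read 156, 129 and 115 and 238, 215 and 120.3, above the controls at 82.3, 41.0 and 22.7 and 68.8, 97.0 and 71.8.

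The WY difference after HS was also measured in wild-type mice. It differed from that of null mice in 1301 probe sets (10.5%), 716 more positive and 585 more negative in null livers, that is 55.0% positive, or 84.1% without scaling. Over the 752 probe sets higher in null WY+HS mice the wild-type median was 0.0081, with the null sign in 51.3%. Over the 639 lower ones it was 0.00, with the null sign in 47.9%. Among all 8669 probe sets with a difference other than 0 in both strains the share was 47.6%. In unheated null mice, WY against control had the sign of the null difference after HS in 67.2% and 67.0%, against 57.0% of 8224. Differences of 0, which were 3 and 47 there, stay in the shares of called probe sets but are left out of those over all. For groups at the floor a sign can come from rounding, so these shares are approximate. Ifitm3, an antiviral membrane protein, had the largest positive difference between strains (6.18, adjusted p = 1.05e-05), with 0.54 in null and -5.64 in wild-type mice. Hsd3b5 (5.77, 0.00856), Saa4 (5.64, 0.00232), Igfals (4.97, 1.64e-06) and Sult1a1, a sulfotransferase (4.82, 0.00145), followed. In wild-type HS mice 4, 5 and 6 Hsd3b5 read 522, 15.7 and 750 and Sult1a1 read 267, 1109 and 257. Mouse 5 stood apart, with an SD of the log2 difference of 0.548 and 0.606 to mice 4 and 6, against 0.288 between those. Igfals read 233, 143 and 315 in wild-type HS and 74.2, 76.9 and 95.8 in wild-type WY+HS mice, the opposite order to the null mice.

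The largest differences in the other direction were in Hspa1a (-6.79, adjusted p = 0.000331) and Hspa1b (-5.06, 0.00911), the inducible Hsp70 genes, and in Lpl, lipoprotein lipase (-6.66, 1.96e-05), Fabp4 (-5.59, 2.46e-07) and Cd24a (-5.36, 3.25e-07). Hspa1a read 87.7, 61.5 and 15.7 in the HS mice and 32.2, 282 and 15.7 in the WY+HS mice, and 15.7, 15.7 and 15.7 and 1899, 3076 and 1531 in the wild-type groups. In null mice neither Hspa1a nor Hspa1b passed (log2 difference 0.25, adjusted p = 1, and log2 difference 0.67, adjusted p = 0.906), and mouse 23 had the highest level of both. Hspa1a and Hspa1b are near-identical genes, so their signals may be shared.

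**Figure D5:**
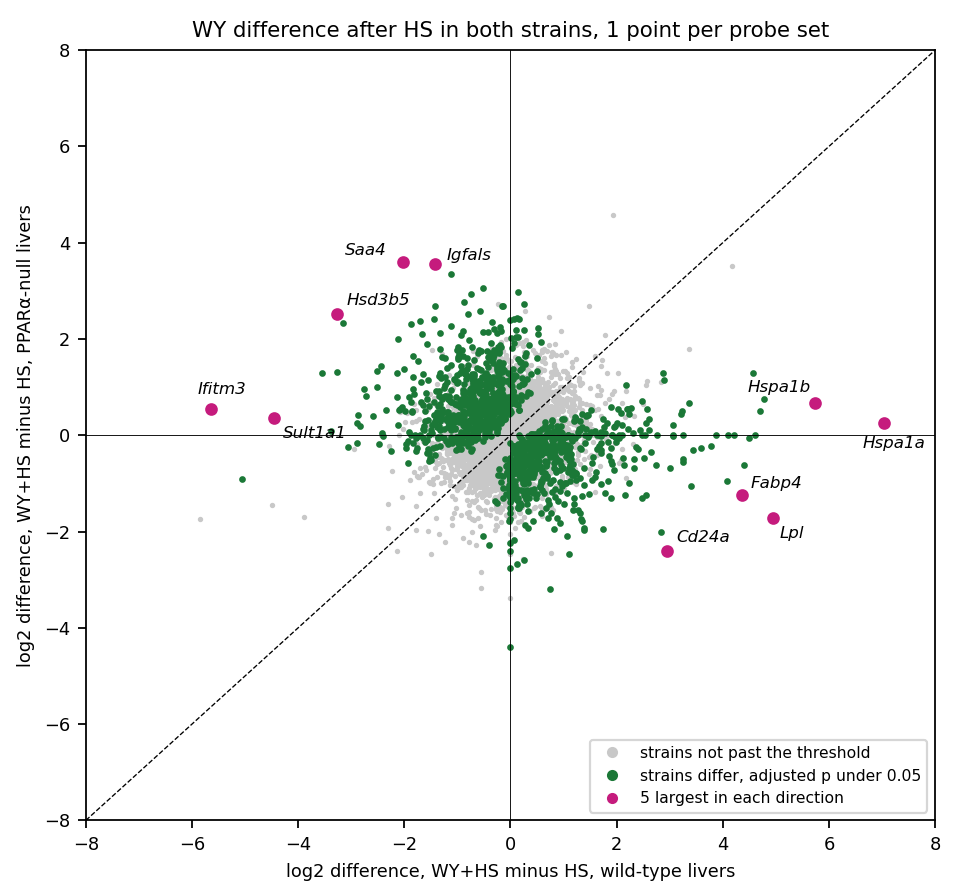
Log2 difference of each probe set, WY+HS minus HS, in wild-type (x axis) and PPARα-null livers (y axis), with the line of equal differences dashed. The 1301 probe sets whose difference passed between strains are green, and the 5 largest in each direction are named, from Hspa1a at -6.79 to Ifitm3 at 6.18.

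Promoter windows of 250 bases before the start were searched on both strands for known motifs, as a description with no test. The head-to-head heat shock units GAANNTTC were in 5.61% of the windows of genes that rose and 5.52% of those that fell, against 5.07% of all, and the tail-to-tail units TTCNNGAA in 6.44%, 5.95% and 6.09%. The estrogen-related receptor element TCAAGGTCA was in 0.66%, 0.42% and 0.25%, the NRF1 core GCGCANGCG in 9.41%, 10.6% and 9.17%, the NF-Y box ATTGG in 37.8%, 30.6% and 34.6%, and the Sp1 box GGGCGG in 54.0%, 53.9% and 52.8%. CArG boxes, bound by SRF, were in 0.99%, 1.49% and 1.43%, and the STAT site in 4.79%, 5.73% and 6.09%. Windows of genes that rose came from 485 genes and those of genes that fell from 366, and some genes have several starts.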

How the data were processed

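Liver RNA of 24 mice was hybridised to 1 Affymetrix U74Av2 array per mouse. The deposited values are probe set intensities that the authors made from the scanned arrays in Rosetta Resolver. No source used here states how probes were summarised and scaled, and 24.15% of the values lie at or below 0. Intensities were quantile normalized over the 24 arrays and set to a floor of 15.74, the size of the 10th percentile (itself negative), so that 42.86% of values lie at the floor, then taken to log2. Group means of the 8 groups were fitted with limma 3.58.1 in R 4.3.3, with Benjamini-Hochberg adjustment over 12422 probe sets, a step tested on simulated data. Each array is 1 mouse, and nothing in the labels gives litter, cage or scan date, so the p-values measure the spread between these mice.

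Of the probe sets 10833 carry 1 gene symbol in the platform annotation, 396 several and 1193 none, and genes were named only from the first. Named genes were the 12 largest rises and 12 largest falls past the threshold whose groups did not overlap, up to 4 members past the threshold with the largest differences in each of 42 pathway lists (or the largest difference where none passed), genes the study discusses for null mice, and the 5 largest in either direction of both interaction contrasts. A few further members and sister probe sets were chosen after their values were seen. Some list members that the rule names, mostly of the respiratory chain, and 1 of the largest falls are not reported here. Members and lists were chosen with earlier results of these data known. Promoter windows are RefSeq sequence, found for 6572 of 8251 genes.

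Alternatives were scaling to a common median, other floors, a filter on dim probe sets, array weights, trended robust moderation, fewer arrays in the fit, an adjusted p under 0.01, leaving out each array, and the methods' F test over the groups with Scheffe's post-hoc test. No scaling between arrays and a filter at 4 times the floor were added after seeing the data.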

Additional observations from a re-analysis of the deposited data

Results flagged for a closer look

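The WY difference after HS was tested between strains and against unheated null mice, and these are the differences between groups that passed. Between strains 1301 probe sets passed. The difference was more positive in null mice for Ifitm3 (6.18 on the log2 scale), Hsd3b5 (5.77), Saa4 (5.64), Igfals (4.97) and Sult1a1 (4.82), and more negative for Hspa1a (-6.79), Lpl (-6.66), Fabp4 (-5.59), Cd24a (-5.36) and Hspa1b (-5.06).

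Between heated and unheated null mice 229 probe sets passed. The WY difference was more positive after HS for Sct (4.30), Meg3 (3.35), Igfals (3.33), Dctpp1 (3.27) and Fam102a (3.21), and more negative for Cd4 (-4.84), Tff2 (-4.41), Col9a1 (-3.16), Csnk2a2 (-2.58) and S100a6 (-2.44).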

How the results depend on the processing

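The 1391 calls of WY+HS against HS became 649 at an adjusted p under 0.01, 2176 with array weights, 922 with the arrays of null mice only, 166 with the 6 compared arrays only, 223 without scaling and 610 with the methods' F test over the groups followed by Scheffe's post-hoc test. Leaving out 1 array gave 729 to 1597. The 229 interaction calls became 54 at an adjusted p under 0.01, 607 with array weights, 347 at a common median, 41 without scaling and 37 with the compared arrays only, and 118 to 547 with 1 array left out. The 1301 calls between strains became 741 at an adjusted p under 0.01 and 691 with the methods' test, and 1036 to 1555 with 1 array left out. With the floor at the 5th percentile, 33.93, the counts were 1231, 220 and 1155. Of the 1391, 229 and 1301 probe sets, 78, 13 and 30 then had a difference of 0 or of the other sign. These cases were not counted apart, and values below that floor are set equal. The cause of the changes in counts was not tested, beyond the fewer arrays or stricter threshold of some settings. Of 157 called named genes, 83 kept the call with any 1 array left out, 125 at a common median, 40 without scaling and 24 in the 6 arrays alone. Signal near background limits dim probe sets, of which 2996 lay at the floor on all arrays. No paired analysis was possible because the mouse numbers differ between the groups.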
